A study of Bos grunniens x Bos taurus and Bos grunniens with 6 samples.

Results

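The 78 deubiquitinase genes in the testis of cattle-yak and yak are described here. They were taken from the deposited table by gene symbol, as every gene whose symbol names a ubiquitin-specific protease (USP), an ovarian tumour protease (OTUB, OTUD, OTULIN, TNFAIP3, YOD1, ZRANB1), a ubiquitin C-terminal hydrolase (UCHL3, UCHL5, BAP1), CYLD, a Josephin protease (ATXN3, JOSD1) or a metalloprotease of the JAMM family (STAMBP, STAMBPL1, BRCC3), and they made up 78 of 18918 genes. The 78 genes carried 69 symbols, because 8 symbols stood on 17 genes. The rule used symbols and no measured value.

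The study compared the testis transcriptome of 3 cattle-yak (libraries C1, C2 and C3) with that of 3 yak (Y1, Y2 and Y3), with 1 library per animal. Cattle-yak were first-generation hybrids of a Jersey bull and a Gannan yak cow, yak were of the Gannan breed, and all animals were males aged 4 years. The groups were kept in different counties. The sample records give castration as the source of all testes, whereas the study's methods give castration for cattle-yak and euthanasia for yak, so cross, place and mode of collection cannot be told apart. Levels are given as FPKM, fragments per kilobase of gene and per depth of the library, and reads of both crosses had been mapped to the yak assembly. Values of single animals are listed in the order C1, C2, C3 and Y1, Y2, Y3, and each group has n = 3.

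Ubiquitin is a small protein that is joined to other proteins singly or in chains, and it marks them for degradation by the proteasome, for sorting at endosomes, or for signalling. Deubiquitinases cut ubiquitin off again, most as cysteine proteases and the JAMM members as zinc metalloproteases. In the testis they are known for removing ubiquitin from histones in germ cells, for the stability of regulators of meiosis, and for the sorting of vesicles while spermatids build the acrosome.

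The libraries held 11175091 to 11834978 fragments on genes in cattle-yak and 12991631 to 13136119 in yak, so that 1 fragment on 1 kb of gene stood for 0.0761 to 0.0895 FPKM. The values are of whole tissue, in which fewer cells of a type and less RNA per cell cannot be told apart. Testis markers were present in both groups, and none of them was at 0 in all libraries of a group. All 10 Sertoli, all 5 Leydig and all 6 myoid markers were called higher in cattle-yak, and 7 of 8 spermatogonia markers were. All 5 round spermatid markers were called lower (22.04 to 62.9 FPKM summed over the list in cattle-yak, 702 to 836 FPKM in yak), as were all 6 elongating spermatid markers (18.3 to 85.9 against 9060 to 11018 FPKM). Summed Sertoli markers reached 2661 to 2820 FPKM in cattle-yak and 529 to 608 FPKM in yak, and summed spermatocyte markers 187 to 334 and 367 to 391 FPKM, with 1 of 7 called higher and 1 lower. Endothelium and macrophage markers went both ways, with 2 higher and 1 lower of 5 and with 2 higher and 2 lower of 5. Their sums were 26.6 to 43.3 and 37.1 to 50.3 FPKM in cattle-yak and 27.1 to 31.4 and 93.1 to 105 FPKM in yak. The sums of these lists did not overlap between groups, endothelium apart, but not every list moved as a whole. In the spermatocyte list PIWIL1 fell most (15.7 against 148 FPKM, cattle-yak against yak), and the median log2 fold change was 0.00. In the macrophage list AIF1 (3.55 against 61.3 FPKM) and CD14 (8.93 against 27.3 FPKM) were the lower genes, and the median was 0.90. The part of the lists in the results on deubiquitinases was not tested.

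Deubiquitinases were transcribed in both groups, and their levels were rearranged between them. A mean of at least 0.5 FPKM over the 6 animals was reached by 75 of the 78 genes, and these were tested with limma on log2 (FPKM + 1). The other 3 were USP19, an ER-anchored deubiquitinase, USP43 and the shorter of the genes named BAP1, whose values lay between 0 and 0.604 FPKM. Called genes had a Benjamini-Hochberg adjusted p under 0.05 together with a log2 fold change, cattle-yak over yak, beyond 1 on either side. Of the 75, 25 (33.3%) were called higher in cattle-yak and 16 (21.3%) lower, against 33.4% and 20.8% of all 15042 genes tested, so that the shares of the deubiquitinases lay near the background (either direction 54.7% against 54.2%). With median-of-ratios scaling 13 were called higher and 21 lower (17.7% and 27.7% of all genes, 45.4% in either direction). The study, with DESeq on read counts at the same thresholds, reported more genes lower than higher in cattle-yak. Over all genes that is the balance seen here with median-of-ratios scaling, and not the balance of the unscaled FPKM. With Sertoli-centred scaling, in which each library is shifted so that its Sertoli markers come to 1 common level, 0 were called higher and 58 lower (0.186% and 75.8% of all genes, 76% in either direction). The median log2 fold change was 0.34 over the deubiquitinases and 0.51 over all genes tested. It was -0.26 and 0.01 with median-of-ratios scaling, and -1.96 and -1.78 with Sertoli-centred scaling. The values of the groups did not overlap for 66 of 75 deubiquitinases (88%), against 84.1% of all genes: 42 were higher in cattle-yak and 24 lower (56.0% and 32.0%, against 53.9% and 30.2% of all genes).

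**Figure D1:**
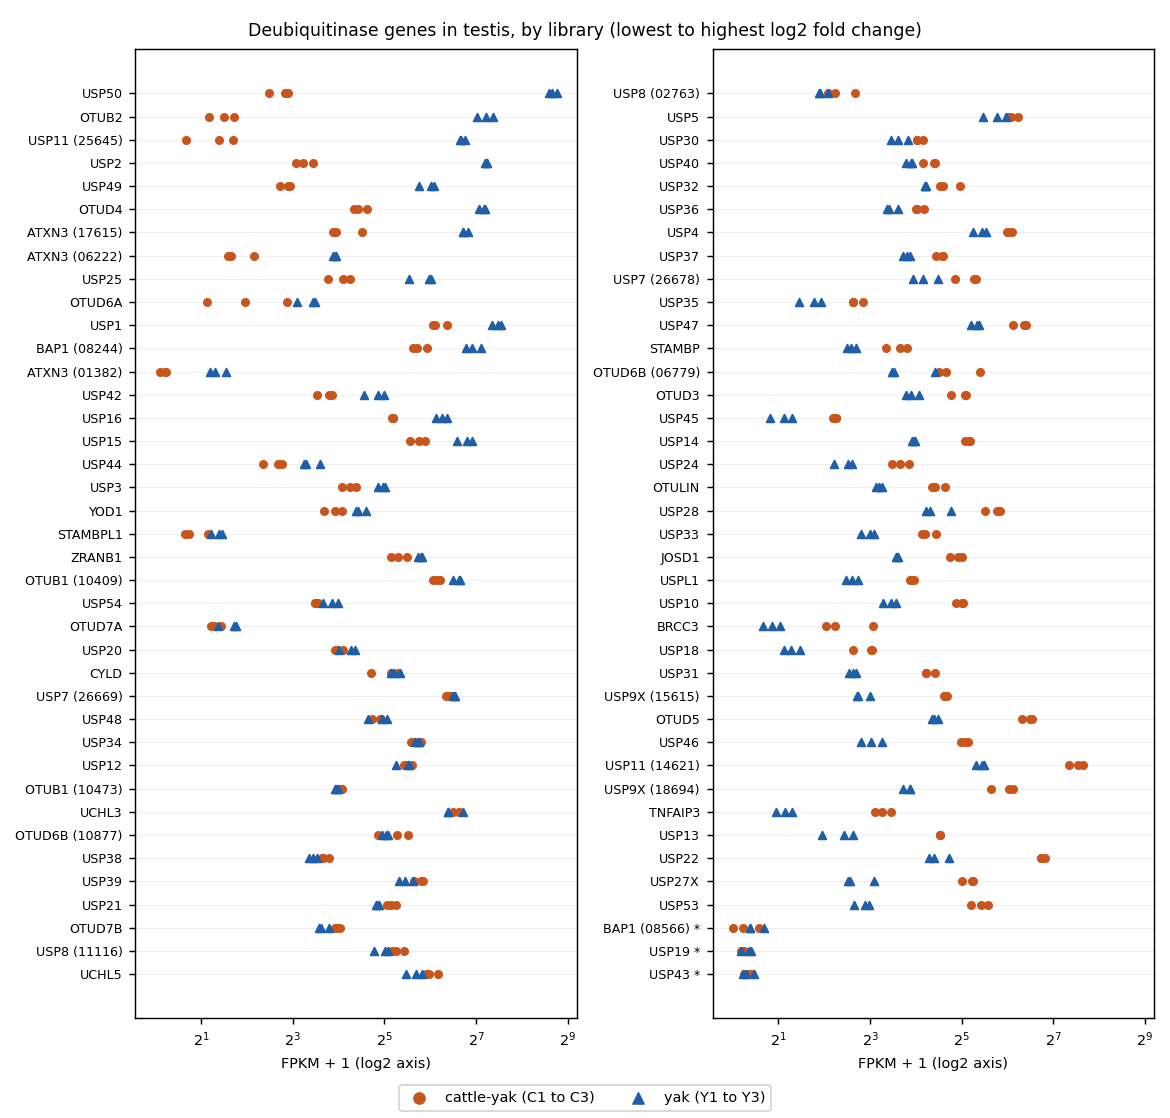
FPKM + 1 of each of the 78 deubiquitinase genes (rows, sorted by log2 fold change from the lowest at the top left to the highest at the bottom right) on a log2 axis, with 1 circle per cattle-yak library and 1 triangle per yak library; gene numbers stand in brackets where a symbol names several genes, and the 3 genes that were not tested, marked by a star, stand last. At the top left the triangles of USP50 stand at 386.5 to 433.8 FPKM and its circles at 4.57 to 6.44 FPKM, and towards the end of the second column the circles stand to the right of the triangles.

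Of the 16 genes called lower, all 16 were also called lower with median-of-ratios and with Sertoli-centred scaling, and 12 were called in every setting tried. Both scalings move the log2 fold changes down (median over all genes 0.51 without scaling, 0.01 and -1.78 with them). Genes called lower were thereby moved further past the limit, so their kept calls under these scalings are no separate evidence. Of the 25 called higher, 13 were also called higher with median-of-ratios scaling and 0 with Sertoli-centred scaling, where 2 of them, USP53 and USP27X, kept a value above 0 (0.27 and 0.15). The 12 that lost the call with median-of-ratios scaling, at 0.46 to 0.95, were STAMBP, the second OTUD6B gene, OTUD3, USP45, USP14, USP24, OTULIN, USP28, USP33, JOSD1, USPL1 and USP10. The 5 further genes called lower under that scaling were USP44, USP3, YOD1, ZRANB1 and the main OTUB1 gene. A further 22 genes had an adjusted p under 0.05 with a smaller change, 15 above 0 and 7 below, and 12 did not pass the adjusted p.

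The order of the levels differed between the groups. In yak the most abundant deubiquitinase was USP50, with a mean of 407 FPKM, followed by USP1 (175), USP2 (147), OTUB2 (147), OTUD4 (141) and BAP1 (122). The 3 yak libraries of OTUB2 spanned those of USP2 and reached into those of USP1, so the order of these neighbours was not separated. In cattle-yak the first gene was USP11 (182), followed by USP22 (107), UCHL3 (94.4), OTUD5 (86.3) and USP7 (83.9). USP11 exceeded USP22 and USP22 exceeded UCHL3 in every library, while UCHL3 overlapped with OTUD5 and OTUD5 with USP7. Across the 75 genes the group means had a Spearman correlation of 0.465, against 0.642 over all genes tested, a description over genes that share 6 libraries.

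Summed over all 78 genes, deubiquitinases took up 2311, 2387 and 2352 FPKM in C1, C2 and C3 and 2999, 2890 and 3035 FPKM in Y1, Y2 and Y3. All cattle-yak sums lay below all yak sums. The means were 2350.2 ± 38.2 and 2975 ± 75.5 FPKM (SD, 3 animals each; exact permutation test, two-sided, p = 0.1, the smallest p that 3 animals against 3 allow; adjusted p = 0.109 over 12 measures). In the unscaled values the median over the genes had the opposite order, with 21.001 ± 0.226 FPKM (SD) for cattle-yak and 15.1 ± 0.7403 FPKM (SD) for yak (exact permutation p = 0.1, adjusted p = 0.109). A level of at least 10 FPKM was reached by 58 genes in each cattle-yak library and by 52 in each one of yak. The median FPKM and the numbers at 10 FPKM were not computed under another scaling. The median log2 fold change turned from 0.34 to -0.26 with median-of-ratios scaling, so the order of the median FPKM may depend on the scaling. On the 5 most abundant lay 23.6% ± 0.704 (SD) of this sum in the hybrids and 34.2% ± 0.464 (SD) in yak, and USP50 alone took 13.3% to 14.3% of it in yak. The animals of a group were close to each other, with a median coefficient of variation of 10.7% in both groups, against 14.2% and 12.9% over all genes tested.

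**Figure D2:**
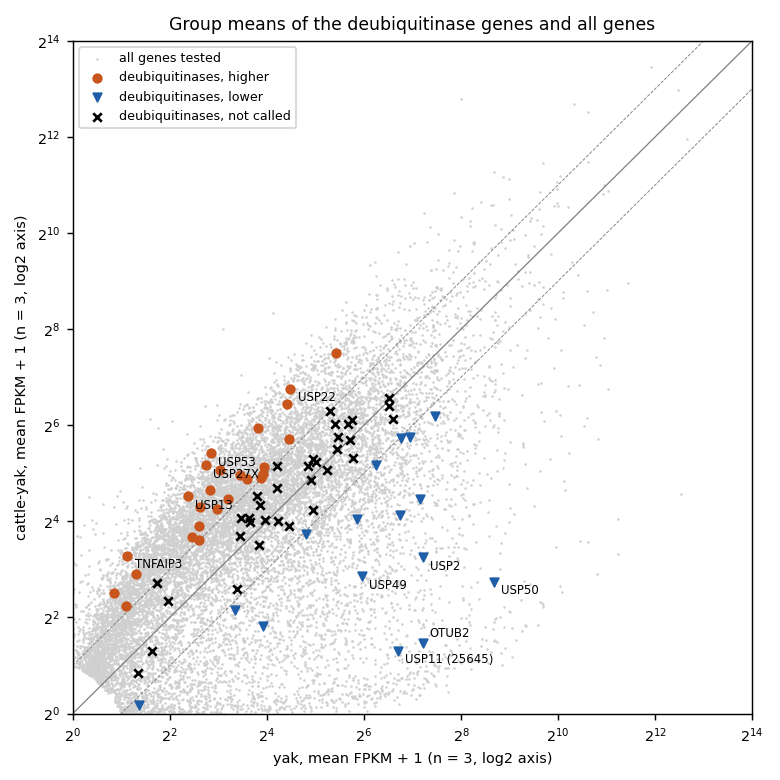
Mean FPKM + 1 in cattle-yak (vertical, log2 axis) against mean FPKM + 1 in yak (horizontal, log2 axis), each over 3 animals, for all genes tested (grey points) and the deubiquitinases called higher (circles), called lower (triangles) and not called (crosses); the solid line marks equal levels and the dashed lines a log2 difference of 1. USP50, OTUB2 and the second USP11 gene lie at the lower right, with yak means of 406.7, 146.8 and 102.6 FPKM and cattle-yak means of 5.70, 1.79 and 1.48 FPKM.

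By family, USP genes were called higher in 17 and lower in 9 of 50 tested (10 and 11 with median-of-ratios scaling, 0 and 37 with Sertoli-centred scaling). These shares, 34% and 18%, lay near the 33.4% and 20.8% of all genes tested. OTU genes were called higher in 5 and lower in 3 of 15 (2 and 6, and 0 and 13, under the same scalings). Their shares of 33.3% and 20% were also near those of all genes. Of the 4 Josephin genes 1 was called higher and 3 lower (0 and 3 under both scalings). All 3 lower ones carried the symbol ATXN3, 1 of them with 1 or 2 fragments per cattle-yak library. Of the 3 JAMM genes 2 were called higher and 0 lower (1 and 0, and 0 and 2). The 3 ubiquitin C-terminal hydrolases tested held 1 gene called lower (1 and 3 lower under the scalings). Summed by family, the Josephin genes showed 54.3, 41.9 and 47.7 FPKM in cattle-yak and 131, 129 and 139 FPKM in yak, and the JAMM genes 15.9, 21.6 and 12.9 FPKM and 7.499, 7.31 and 7.39 FPKM. The sums of the other families were lower in cattle-yak: 1681 ± 45.7 against 1987 ± 32.4 FPKM (SD) for the USP genes, 393 ± 11.2 against 585 ± 26.8 FPKM for the OTU genes and 211 ± 4.16 against 262 ± 13.9 FPKM for the ubiquitin C-terminal hydrolases. No family's sums overlapped between groups (exact permutation p = 0.1, adjusted p = 0.109 for each). In the unscaled values the USP and OTU sums had the opposite direction to the majority of their calls. Under both scalings lower calls outnumbered higher ones in these families.

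Grouped by what their proteins are known to act on, the roles with the lowest medians were the deubiquitinases of the ER, the segregase VCP and mitochondria (median log2 fold change -1.49, 0 called higher and 4 lower of 6) and those of histones (median -0.79, 2 called higher and 4 lower of 9). The other medians were 0.39 for signalling and immunity, 0.43 for endosomes, membranes and cilia, 0.61 for nucleolus, splicing, SUMO and junctions, 0.72 for cell cycle and DNA damage, and 0.78 for the proteasome and free ubiquitin chains. With median-of-ratios scaling the medians of signalling (-0.19) and of endosomes (-0.11) turned below 0, those of the nucleolus, cell cycle and proteasome groups came to 0.04, 0.14 and 0.18, and those of the ER and histone groups to -1.89 and -1.32. With Sertoli-centred scaling all of these medians lay below 0, from -1.51 to -3.78. Over all genes tested 33.4% were called higher and 20.8% lower, which is the background for the counts by role here and below. The shares over all genes were 17.7% and 27.7% with median-of-ratios scaling, and 0.186% and 75.8% with Sertoli-centred scaling.

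**Figure D3:**
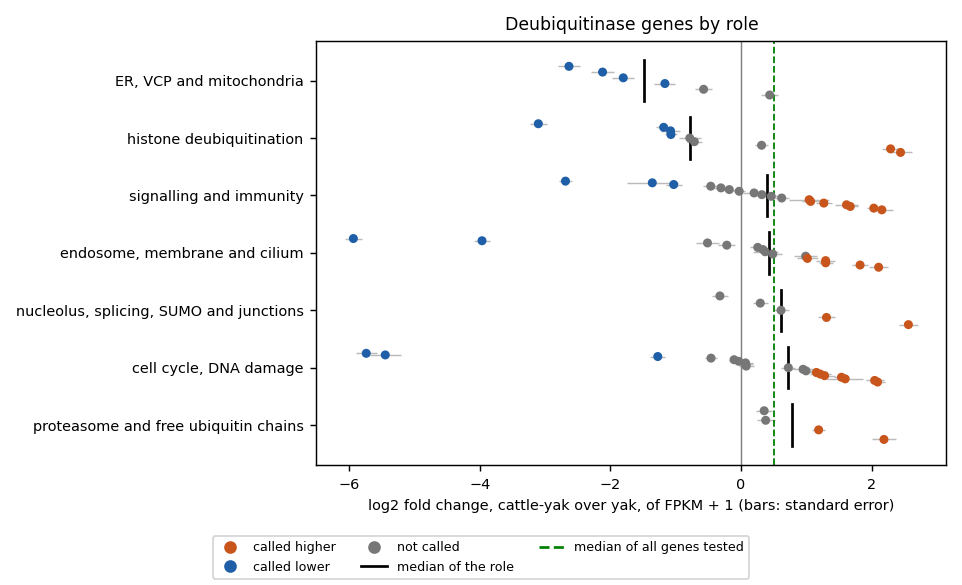
Log2 fold change of FPKM + 1, cattle-yak over yak, of each tested deubiquitinase (points, with the standard error as a bar) by role (rows), coloured by call; black bars mark the median of a role and the dashed line the median of all genes tested (0.51). The ER and VCP genes and the histone genes have medians of -1.49 and -0.79, left of 0, and the other roles medians between 0.39 and 0.78 (between -0.19 and 0.18 with median-of-ratios scaling, which is not plotted).

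Among the deubiquitinases of endosomes, membranes and cilia, USP50 and USP2 were called lower and STAMBP, USP33, JOSD1 and both genes named USP9X higher (5 higher and 2 lower of 14, 2 and 2 with median-of-ratios scaling, 0 and 10 with Sertoli-centred scaling). USP50, a relative of USP8 that is generally described as lacking enzyme activity, was at 6.44, 4.57 and 6.102 FPKM in cattle-yak and 399.9, 386 and 434 FPKM in yak. These values rested on 57 to 85 fragments per cattle-yak library and 5652 to 6290 per yak library. On the log2 (FPKM + 1) scale no other deubiquitinase fell as far, and the yak mean was 71.3 times the cattle-yak mean (log2 fold change -5.94 ± 0.13 (SE), adjusted p = 5.7e-08). USP2, an enzyme with testis isoforms that is needed for full male fertility in mice, was at 9.91, 8.31 and 7.36 FPKM in cattle-yak and 147, 145 and 149 FPKM in yak (log2 fold change -3.97 ± 0.12 (SE), adjusted p = 9.8e-08). The 3 yak libraries of USP2 lay within 5 FPKM of each other, and the yak mean was 17.2 times the cattle-yak mean.

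USP8, which trims receptors at the endosome and is known from the forming acrosome, was at 35.1, 41.9 and 37.1 FPKM in cattle-yak and 32.8, 31.03 and 26.1 FPKM in yak in its longer gene. The groups did not overlap, but the change of 0.34 ± 0.12 (SE) was small and turned negative with median-of-ratios scaling (-0.27). Endosomal partners differed among themselves. HGS, the ubiquitin receptor of the ESCRT-0 complex, was called lower (-1.13) and its partner STAM2 stood at -0.97 without a call, while the phosphatase-like ESCRT protein PTPN23 (1.21) and the ligase RNF128 (2.48) were called higher. STAMBP, the JAMM protease that cuts lysine-63-linked chains at endosomes, was at 11.6, 13.01 and 9.200 FPKM in cattle-yak and 4.95, 4.64 and 5.498 FPKM in yak (log2 fold change 1.02 ± 0.16 (SE), adjusted p = 0.00036). That call rested on single libraries, since the value was 0.99, 0.91 and 0.97 without C1, C2 and Y2. Its relative STAMBPL1 stayed at 0.562 to 1.74 FPKM in all libraries (log2 fold change -0.51 ± 0.18 (SE), adjusted p = 0.029), and voom on the recovered fragments gave -1.01 and called it lower.

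The genes named USP9X, a large deubiquitinase of trafficking and cell polarity, were both called higher. The more abundant of them (ENSBGRG00000018694) was at 48.8, 68.5 and 64.02 FPKM in cattle-yak and 13.7, 12.2 and 13.6 FPKM in yak (log2 fold change 2.11 ± 0.14 (SE), adjusted p = 3.2e-06). The other (ENSBGRG00000015615) was at 23.8, 23.4 and 24.6 FPKM in cattle-yak and 5.601, 5.66 and 7.01 FPKM in yak (log2 fold change 1.82 ± 0.12 (SE), adjusted p = 3.4e-06). Summed over both genes the cattle-yak mean was 4.39 times the yak mean, and the first gene held 67.2% to 74.5% of the sum in cattle-yak and 66.02% to 70.9% in yak, so their proportion overlapped between groups. The symbols USP9Y and USP26 were not analysed here. USP33, which acts on centrosomes and receptors, was at 17.3, 20.8 and 16.4 FPKM in cattle-yak and 6.97, 5.94 and 7.52 FPKM in yak (log2 fold change 1.29 ± 0.14 (SE), adjusted p = 4.7e-05), and the Josephin protease JOSD1 at 29.1, 25.9 and 30.9 FPKM in cattle-yak and 11.2, 11.02 and 10.9 FPKM in yak (log2 fold change 1.30 ± 0.11 (SE), adjusted p = 1.1e-05). Neither was called with median-of-ratios scaling (0.73 and 0.71). USP20, the closest relative of USP33, overlapped between groups (-0.22 ± 0.13 (SE)), and USP38 and USP32 stood at 0.25 and 0.49. USP35 came to 0.99 ± 0.17 (SE), just inside the fold-change limit, and was called higher without C1 (1.03), C3 (1.02), Y1 (1.099) or Y3 (1.02).

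Histone deubiquitinases moved in opposite directions (2 higher and 4 lower of 9, 2 and 6 with median-of-ratios scaling, 0 and 7 with Sertoli-centred scaling). USP22, the subunit of the SAGA complex that removes ubiquitin from histone H2B, was at 105, 112 and 105 FPKM in cattle-yak and 25.5, 18.5 and 20.2 FPKM in yak (log2 fold change 2.29 ± 0.13 (SE), adjusted p = 1.2e-06). Its relative USP27X, which can take its place in the same module, was at 37.2, 36.7 and 31.3 FPKM in cattle-yak and 4.76, 4.95 and 7.46 FPKM in yak (log2 fold change 2.44 ± 0.17 (SE), adjusted p = 3.8e-06). Both were called higher with median-of-ratios scaling as well (1.69 and 1.87), and both came close to 0 with Sertoli-centred scaling (-0.00 and 0.15). Of the 8 genes of the SAGA module and its neighbours, 3 were called higher, namely the adaptor ATXN7L3 (1.55), its paralog ATXN7L3B (2.33) and the acetyltransferase KAT2A (1.54). SGF29, the SAGA reader of methylated histone H3, and the adaptor ATXN7L1 were called lower, at 15.7 against 229 FPKM (-3.79) and 3.09 against 33.2 FPKM (-3.06), cattle-yak against yak.

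USP49, which acts on histone H2B and links it to splicing, was at 6.67, 5.63 and 6.39 FPKM in cattle-yak and 64.05, 53.04 and 66.98 FPKM in yak. Its 3 cattle-yak libraries lay far below all yak libraries (log2 fold change -3.10 ± 0.13 (SE), adjusted p = 3.4e-07), and the yak mean was 9.85 times the cattle-yak mean. USP44, its close relative and a regulator of the anaphase checkpoint, was at 5.37, 4.05 and 5.76 FPKM in cattle-yak and 11.03, 8.53 and 8.72 FPKM in yak and was not called (log2 fold change -0.79 ± 0.17 (SE), adjusted p = 0.0024), although it was with median-of-ratios scaling (-1.32). CDC20, the activator of the anaphase-promoting complex on which USP44 is known to act, was called lower (50.98 against 209 FPKM, -2.04).

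BAP1 and USP16 both remove the ubiquitin that Polycomb complexes put on histone H2A. BAP1 was at 59.6, 51.5 and 47.9 FPKM in cattle-yak and 136, 119.8 and 109 FPKM in yak (log2 fold change -1.19 ± 0.12 (SE), adjusted p = 3.2e-05), and USP16 at 35.1, 34.7 and 35.6 FPKM in cattle-yak and 69.2, 75.2 and 81.4 FPKM in yak (log2 fold change -1.07 ± 0.10 (SE), adjusted p = 1.4e-05). Neither overlapped between groups. In the complex around BAP1, the transcription factor FOXK2 was called lower with it (-1.39), the 3 ASXL cofactors ASXL1, ASXL2 and ASXL3 were not called (-0.21, -0.78 and -0.89; with median-of-ratios scaling ASXL2 and ASXL3 were called lower, both at -1.38), and HCFC1, OGT and the demethylase KDM1B were called higher (1.92, 2.07 and 1.95). USP42, known to be expressed during mouse spermatogenesis, was at 12.8, 13.4 and 10.6 FPKM in cattle-yak and 27.9, 30.8 and 22.5 FPKM in yak (log2 fold change -1.08 ± 0.15 (SE), adjusted p = 0.0002). Its call was lost without C3 or without Y2, with -0.98 in either case. USP21, another H2A deubiquitinase, stood at 0.31 ± 0.10 (SE), and at -0.29 with median-of-ratios scaling.

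All called deubiquitinases of the ER and VCP group were lower (0 higher and 4 lower of 6, 0 and 5 with median-of-ratios scaling, 0 and 6 with Sertoli-centred scaling), and 3 of these 4 were genes named ATXN3. This depended on the assignment of roles, since each gene was counted in 1 role. USP13, for which VCP partners were also listed, was counted with the proteasome and free chains. It was called higher (2.19, and 1.64 with median-of-ratios scaling). ATXN3 edits ubiquitin chains on proteins that VCP pulls out of the ER membrane. Its most abundant gene was at 21.7, 13.8 and 14.5 FPKM in cattle-yak and 104, 103 and 112 FPKM in yak (log2 fold change -2.64 ± 0.16 (SE), adjusted p = 2.1e-06). The second was at 3.43, 2.01 and 2.16 FPKM in cattle-yak and 14.5, 13.7 and 14.2 FPKM in yak (log2 fold change -2.12 ± 0.17 (SE), adjusted p = 8.9e-06), and the third reached 1.92 FPKM at most, with 1 or 2 fragments per cattle-yak library (log2 fold change -1.17 ± 0.16 (SE), adjusted p = 0.0002). The first gene held 86.1% to 86.4% of the symbol's FPKM in cattle-yak and 86.7% to 87.4% in yak, and all 3 fell. USP25, which acts at the ER and in innate immunity, was at 12.6, 16.1 and 17.98 FPKM in cattle-yak and 61.6, 45.7 and 63.3 FPKM in yak (log2 fold change -1.80 ± 0.17 (SE), adjusted p = 2e-05). Among their partners VCP itself stood at 244 against 131 FPKM without a call (0.89), the shuttle factor RAD23B was called higher (2.13) and the VCP cofactor FAF1 was called lower (-1.19). The called partners were 2 higher and 1 lower of 8.

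Deubiquitinases of the cell cycle and DNA damage held 2 of the 3 lowest log2 fold changes, those of OTUB2 and of the second USP11 gene (7 higher and 3 lower of 19, 3 and 4 with median-of-ratios scaling, 0 and 15 with Sertoli-centred scaling). OTUB2, a cysteine protease of the OTU family, was at 2.29, 1.82 and 1.25 FPKM in cattle-yak and 147, 129 and 164 FPKM in yak. This was 15 to 28 fragments per cattle-yak library and 1751 to 2198 per yak library, and the yak mean was 82.1 times the cattle-yak mean (log2 fold change -5.74 ± 0.16 (SE), adjusted p = 9.5e-08). OTUB1, its paralog, which also blocks ubiquitin conjugation through UBC13, changed far less: its main gene was at 69.6, 65.4 and 72.7 FPKM in cattle-yak and 89.7, 99.3 and 97.8 FPKM in yak and was not called (log2 fold change -0.46 ± 0.09 (SE), adjusted p = 0.0016), although it was lower with median-of-ratios scaling (-1.07). The second OTUB1 gene stood at 0.07 ± 0.10 (SE).

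USP1, which takes the single ubiquitin off FANCD2 and PCNA, was at 81.9, 66.1 and 67.8 FPKM in cattle-yak and 176, 186 and 162 FPKM in yak (log2 fold change -1.28 ± 0.11 (SE), adjusted p = 1.3e-05). USP46, which shares the activator WDR48 with USP1, was called higher, at 32.6, 34.2 and 30.9 FPKM in cattle-yak and 5.97, 7.06 and 8.55 FPKM in yak (log2 fold change 2.05 ± 0.14 (SE), adjusted p = 3.4e-06). USP12, the third enzyme with this activator and the closest relative of USP46, overlapped between groups at 43.5, 47.8 and 42.01 FPKM in cattle-yak and 45.5, 37.00 and 44.97 FPKM in yak (log2 fold change 0.07 ± 0.11 (SE), adjusted p = 0.6). The sign of its change turned with median-of-ratios scaling (-0.54) and without Y2 (-0.0265). WDR48 stood at -0.27 and the related activator WDR20 at -0.96, and the substrates FANCD2 and FANCI at 0.70 and -0.11, none of them called, though WDR20 was called lower with median-of-ratios scaling (-1.56).

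USP7, which controls the stability of MDM2, was at 83.5, 87.98 and 80.2 FPKM in cattle-yak and 91.99, 90.7 and 88.5 FPKM in yak in its main gene and differed little (log2 fold change -0.11 ± 0.08 (SE), adjusted p = 0.27). A second gene of that symbol, 198 bases long, stood at 0.95 ± 0.18 (SE) on 37 to 86 fragments, and was called higher without C1 (1.098) or Y3 (1.09). Among the USP7 partners MDM2 was called higher (1.63), while GMPS, which stimulates USP7, stood at 0.12. USP28, a DNA damage deubiquitinase of the same role and a relative of USP25, was at 44.9, 56.1 and 53.5 FPKM in cattle-yak and 18.8, 17.6 and 26.1 FPKM in yak (log2 fold change 1.28 ± 0.16 (SE), adjusted p = 0.00012). BRCC3, the lysine-63-specific JAMM protease of the BRISC and BRCA1-A complexes, was at 3.69, 7.34 and 3.12 FPKM in cattle-yak and 0.811, 1.06 and 0.574 FPKM in yak (log2 fold change 1.59 ± 0.27 (SE), adjusted p = 0.00066), which was 34 to 77 fragments in cattle-yak and 7 to 13 in yak. Of its 6 partners SHMT2, the enzyme that BRISC binds, was called higher (1.58), and the scaffold ABRAXAS1 and the ubiquitin reader UIMC1 stood at 0.54 and -0.81 without a call. USP45, which acts in nucleotide excision repair, was at 3.54, 3.78 and 3.801 FPKM in cattle-yak and 1.18, 0.763 and 1.45 FPKM in yak (log2 fold change 1.15 ± 0.17 (SE), adjusted p = 0.00026), and USP37, which acts on cyclin A, stood at 0.72 ± 0.11 (SE). UCHL3, known from germ cell survival in the mouse testis, overlapped between groups at 97.2, 97.04 and 88.9 FPKM in cattle-yak and 82.6, 82.6 and 104 FPKM in yak (log2 fold change 0.08 ± 0.12 (SE), adjusted p = 0.55).

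The symbol USP11, an enzyme of DNA repair and signalling, stood on a pair of genes that moved in opposite directions. The first (ENSBGRG00000014621, 2817 bases) was at 160.2, 186 and 199 FPKM in cattle-yak and 38.97, 42.2 and 44.2 FPKM in yak. The second (ENSBGRG00000025645, 2070 bases) was at 2.25, 1.599 and 0.583 FPKM in cattle-yak and 101, 107 and 99.7 FPKM in yak. The groups overlapped in neither gene, and the first rose with 2.09 ± 0.11 (SE) (adjusted p = 9e-07; -0.20 with Sertoli-centred scaling) while the second fell, with a log2 fold change of -5.45 ± 0.24 (SE) (adjusted p = 4.3e-07). The second gene took 69.3% to 72.2% of the symbol's FPKM in yak and 0.292% to 1.38% in cattle-yak. Summed over both, USP11 was at 162, 187 and 199 FPKM in cattle-yak and 140.4, 149 and 144 FPKM in yak, a ratio of 1.27 between the means of 183 ± 18.8 and 144 ± 4.304 FPKM (SD; exact permutation p = 0.1). Neither gene has a name beside its symbol in the table, and how the counting divided reads between similar genes is uncertain.

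By group means, the more abundant gene changed in no other shared symbol, but the shares did not overlap between groups in OTUB1, USP7 and ATXN3. In ATXN3 the margin was small, with 86.1% to 86.4% for the first gene in cattle-yak and 86.7% to 87.4% in yak. The second OTUB1 gene, at 14.9, 15.3 and 15.9 FPKM in cattle-yak and 14.9, 14.1 and 14.6 FPKM in yak, held 17.6% to 18.9% of the symbol's FPKM in cattle-yak and 12.5% to 14.2% in yak. The second USP7 gene, at 27.7, 38.9 and 37.4 FPKM in cattle-yak and 16.9, 14.3 and 21.4 FPKM in yak, held 24.9% to 31.8% and 13.6% to 19.5%. In OTUB1 and USP7 the main gene was lower and the second higher in cattle-yak without overlap, and none of the 4 was called. The gap was very narrow for the second OTUB1 gene (14.90 FPKM in C1, 14.86 in Y1) and the main USP7 gene (87.98 in C2, 88.54 in Y3). Their limma adjusted p were 0.52 and 0.27, so no direction is shown for either. The second OTUB1 gene came to -0.51 with median-of-ratios scaling. The main genes of BAP1 and USP8 held at least 99.2% and 87.3% of their symbol's FPKM in every library. The 2 genes named OTUD6B, an OTU protease of translation control, stood at 37.8, 28.00 and 44.5 FPKM in cattle-yak and 29.8, 31.7 and 32.6 FPKM in yak and at 21.6, 41.4 and 24.1 FPKM in cattle-yak and 20.4, 10.6 and 10.1 FPKM in yak. The first overlapped between groups (0.20 ± 0.16 (SE)), and the second, a gene of 426 bases, was called higher (log2 fold change 1.04 ± 0.31 (SE), adjusted p = 0.013) but not without C2 (0.77), Y2 (0.905) or Y3 (0.88).

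Enzymes at the proteasome and on free chains did not include a gene called lower (2 higher of 4, 1 with median-of-ratios scaling, and 3 lower with Sertoli-centred scaling). USP14, which trims chains on the proteasome, was at 32.5, 34.8 and 35.3 FPKM in cattle-yak and 13.99, 14.6 and 14.8 FPKM in yak (log2 fold change 1.19 ± 0.10 (SE), adjusted p = 9.3e-06), and UCHL5, the other cysteine protease of the proteasome, at 58.6, 61.5 and 70.96 FPKM in cattle-yak and 50.4, 43.1 and 55.8 FPKM in yak without a call (log2 fold change 0.35 ± 0.13 (SE), adjusted p = 0.028). ADRM1, the proteasome receptor that binds UCHL5, was called lower (47.4 against 156 FPKM, -1.71), and NFRKB, its INO80 partner, higher (1.08). USP13, a paralog of USP5, was at 22.1, 22.1 and 21.97 FPKM in cattle-yak and 5.22, 2.85 and 4.402 FPKM in yak, with an SD of 0.0623 FPKM in cattle-yak (log2 fold change 2.19 ± 0.18 (SE), adjusted p = 9.8e-06). USP5, which takes apart unanchored chains, was not called (66.7, 74.4 and 63.3 FPKM in cattle-yak and 53.7, 61.1 and 43.1 FPKM in yak; log2 fold change 0.38 ± 0.14 (SE), adjusted p = 0.034).

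In signalling and immunity, OTUD4, OTUD6A and USP15 were called lower and 7 genes higher (4 and 4 of 18 with median-of-ratios scaling, 0 and 14 with Sertoli-centred scaling). OTUD4, a scaffold of DNA alkylation repair that also acts in immune signalling, was at 19.3, 23.5 and 20.4 FPKM in cattle-yak and 145, 134 and 144 FPKM in yak (log2 fold change -2.69 ± 0.10 (SE), adjusted p = 2.5e-07). OTUD6A was at 6.27, 2.86 and 1.18 FPKM in cattle-yak and 9.91, 10.2 and 7.47 FPKM in yak, and its cattle-yak libraries spread widely around their mean, with an SD of 2.59 FPKM (log2 fold change -1.36 ± 0.39 (SE), adjusted p = 0.011). Without C3, which held the lowest value, its change was -0.93 and it was not called. USP15, an enzyme of TGF-beta signalling, was at 53.1, 58.3 and 45.96 FPKM in cattle-yak and 111, 95.3 and 119 FPKM in yak (log2 fold change -1.03 ± 0.12 (SE), adjusted p = 8.5e-05), and its call was lost without C3 (-0.94) or Y3 (-0.96). USP4, the paralog of USP15, stood at 67.3, 62.1 and 63.1 FPKM in cattle-yak and 42.6, 44.9 and 36.9 FPKM in yak without a call (log2 fold change 0.62 ± 0.10 (SE), adjusted p = 0.00061).

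TNFAIP3 (A20), a brake on NF-kappaB signalling, was at 8.52, 7.65 and 10.02 FPKM in cattle-yak and 1.195, 0.918 and 1.44 FPKM in yak. The lowest cattle-yak library lay far above the highest yak library (log2 fold change 2.16 ± 0.16 (SE), adjusted p = 6e-06). OTULIN, which cuts the linear chains made by the LUBAC ligase, was at 20.3, 19.4 and 23.8 FPKM in cattle-yak and 7.702, 8.22 and 8.65 FPKM in yak (log2 fold change 1.27 ± 0.12 (SE), adjusted p = 2.4e-05), while CYLD, which cuts linear and lysine-63-linked chains, overlapped between groups at 38.1, 25.2 and 34.5 FPKM in cattle-yak and 35.9, 39.4 and 34.5 FPKM in yak (log2 fold change -0.18 ± 0.16 (SE), adjusted p = 0.31). The LUBAC subunits themselves differed: RBCK1 was called higher (1.91), SHARPIN lower (-1.24), and the catalytic RNF31 stood at -0.19. SPATA2, the adaptor that brings CYLD to LUBAC, stood at -0.95, and the A20-binding proteins TNIP1 and TNIP2 were called higher (1.63 and 1.003).

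USP18, which removes the ubiquitin-like protein ISG15 rather than ubiquitin, was at 7.21, 5.22 and 7.17 FPKM in cattle-yak and 1.19, 1.41 and 1.75 FPKM in yak (log2 fold change 1.61 ± 0.17 (SE), adjusted p = 4.4e-05). Of the ISG15 genes the conjugating enzyme UBE2L6 and the ligase-family member HERC6 were called higher (1.97 and 1.46), and ISG15 itself, at 1.39, 5.55 and 10.9 FPKM in cattle-yak and 2.22, 1.11 and 1.405 FPKM in yak, was not (log2 fold change 1.17 ± 0.51 (SE), adjusted p = 0.063). USP31 was at 20.5, 17.8 and 17.5 FPKM in cattle-yak and 5.45, 5.14 and 4.84 FPKM in yak (log2 fold change 1.67 ± 0.12 (SE), adjusted p = 5.2e-06). OTUD7B (Cezanne), specific for lysine-11-linked chains, and its relative OTUD7A stood at 0.32 and -0.31.

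In the group of nucleolus, splicing, SUMO and junctions, 2 of 5 were called higher and 0 lower (1 and 0 with median-of-ratios scaling, 0 and 3 with Sertoli-centred scaling). USP53, a protein of tight junctions, was at 36.1, 46.9 and 42.04 FPKM in cattle-yak and 6.92, 5.28 and 6.46 FPKM in yak. On the log2 (FPKM + 1) scale this was the highest change among the deubiquitinases (log2 fold change 2.56 ± 0.14 (SE), adjusted p = 1.2e-06). With a pseudocount of 0.1 TNFAIP3 exceeded it (2.79 against 2.73), as it did with voom (2.89 against 2.74). USP54, its paralog, stood at 10.7, 10.2 and 10.2 FPKM in cattle-yak and 13.4, 14.9 and 11.7 FPKM in yak without a call (log2 fold change -0.32 ± 0.13 (SE), adjusted p = 0.042). USP39, a splicing factor without protease activity, and USP36, the enzyme of the nucleolus, stood at 0.29 and 0.61.

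The rule for naming genes left out 14 members, of which 13 were tested, and their values were looked at before they were named here. Of these, 5 were called higher and 0 lower: OTUD5 (2.03), USP10 (1.54), USPL1 (1.31), USP24 (1.21) and OTUD3 (1.06). With median-of-ratios scaling OTUD5 remained higher (1.43), and USP3, YOD1 and ZRANB1 were called lower (-1.31, -1.16 and -1.07). OTUD5, an enzyme of interferon signalling, was the fourth most abundant deubiquitinase in cattle-yak, at 78.7, 88.6 and 91.8 FPKM in cattle-yak and 19.4, 20.1 and 21.4 FPKM in yak.

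Related enzymes can be compared inside a library, where scaling between libraries reaches their ratio only through the pseudocount (with median-of-ratios scaling the difference between groups moved by at most 0.22 in any pair). Of 29 pairs listed, 20 had both genes tested, each symbol standing for its most abundant gene. The ratio of log2 (FPKM + 1) values did not overlap between groups in 19 pairs, and in 17 pairs the group means differed by more than 1. In 10 pairs the more abundant partner changed: all 3 libraries of a group had one order and all 3 of the other group the reverse. Each of the 19 had an exact permutation p of 0.1, the smallest possible, and an adjusted p of 0.105 over 20 pairs, so none passed 0.05. Median-of-ratios scaling gave the same counts, 19 pairs without overlap, 17 beyond 1 and 10 switches. Pairs of other genes were not compared, so these counts have no background. Of all genes tested, 84.1% did not overlap between groups when taken singly. Some genes, among them USP4, USP11 and USP15, stood in several pairs. Whether related enzymes differ in this from other pairs of genes was not tested.

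USP8 exceeded USP50 in cattle-yak, with log2 ratios of 2.28, 2.95 and 2.42, and was exceeded by it in yak, with -3.57, -3.5964 and -4.0037. The pair OTUB1 and OTUB2 had ratios of 4.42, 4.56 and 5.03 in cattle-yak and -0.71, -0.38 and -0.74 in yak. USP2 over USP21 went the other way, with -1.61, -1.92 and -2.19 in cattle-yak and 2.38, 2.31 and 2.43 in yak. The order also switched for USP25 and USP28 (mean -1.67 in cattle-yak and 1.41 in yak), USP53 and USP54 (1.899 and -0.99), UCHL3 and the neuronal and germ-stem-cell hydrolase UCHL1 (-1.15 and 0.76), USP36 and USP42 (0.35 and -1.34), USP4 and USP15 (0.29 and -1.36), and USP20 and USP33 (-0.26 and 1.25). The tenth pair, USP15 and USP11, depended on which USP11 gene was used: its means were -1.77 and 1.35 with the first gene and -1.78 and -0.42 with both genes summed, which left 9 switches and 16 pairs beyond 1. For USP4 and USP11 the difference between groups was -1.47 with the first gene and 0.29 with the sum. USP22 and USP27X, both called higher, had overlapping ratios, as 1.48, 1.58 and 1.72 in cattle-yak lay among 2.1998, 1.71 and 1.32 in yak (difference -0.15, exact permutation p = 0.8).

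**Figure D4:**
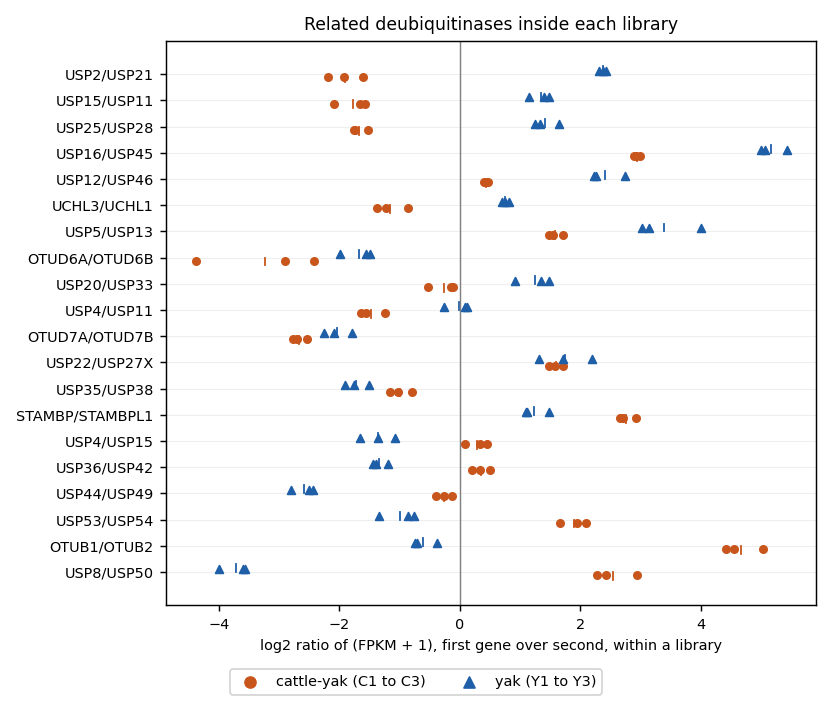
Log2 ratio of FPKM + 1 of the first over the second gene of each of 20 related pairs (rows), within each cattle-yak library (circles) and yak library (triangles); vertical ticks mark group means, and the line at 0 marks equal levels. The symbols stand on opposite sides of 0 for 10 pairs, from USP2/USP21 at the top to USP8/USP50 at the bottom, and only USP22/USP27X overlaps.

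Outside the 78 genes, 17 further deubiquitinases that the rule did not take in were tested, of which 6 were called higher and 1 lower (median 0.67; 1 and 2 with median-of-ratios scaling, 0 and 15 with Sertoli-centred scaling). UCHL1, a marker of spermatogonia, was called higher (1.99), as were the histone H2A protease MYSM1 (1.26) and ZUP1 (1.46), and MINDY4 was called lower (-1.82). Of those called higher UCHL1 kept its call with median-of-ratios scaling. The proteasome lid protease PSMD14 stood at 0.87 without a call. Of 70 partner and substrate genes tested, 22 were called higher (31.4%) and 9 lower (12.9%), with a median of 0.52, against 33.4% and 20.8% of all genes. With median-of-ratios scaling they were 13 and 16: 9 lost a higher call (0.44 to 0.97), among them ATXN7L3, KAT2A, NFRKB, TNIP2 and PTPN23, and 7 gained a lower one (-1.23 to -1.57), among them UIMC1, SPATA2 and STAM2. With Sertoli-centred scaling 0 were called higher and 55 lower. The 3 largest changes called in each direction were RNF128, ATXN7L3B and RAD23B upwards and SGF29, ATXN7L1 and the sulfhydryl oxidase GFER (32.8 against 171 FPKM, -2.36) downwards.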

How the data were processed

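Testis RNA of 3 cattle-yak and 3 yak was sequenced, each animal giving 1 library. According to the study's methods, trimming was done with Trimmomatic, mapping with HISAT2 to the assembly LU_Bosgru_v3.0 and FPKM estimation with Cufflinks. The same methods name HTSeq-count for the read counts of genes. The deposited values are FPKM of each gene in each animal and were not scaled between libraries by the authors. Tool versions are not given in the sources used here. Depth came from whole fragments recovered from the FPKM ratios between libraries, for all 78 deubiquitinases. The values are whole fragments over a length and a depth. Whether they came from Cufflinks or from the HTSeq-count counts was not tested. How reads were assigned between genes of a symbol is therefore uncertain.

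The 15042 of 18918 genes whose mean FPKM reached 0.5 were tested two-sided on the log2 scale with a pseudocount of 1, using the lmFit and eBayes functions of limma 3.58.1 (trended prior; R 4.3.3) with Benjamini-Hochberg adjustment over all of them and the study's thresholds. Fold changes on this scale understate changes of low genes. The script was tested on simulated data. Single values per library were compared with exact permutation tests over 10 splits in Python 3.11.15 with scipy 1.17.1. All p-values rest on 3 animals per group, and the exact test cannot fall below 0.1.

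The members and lists were chosen with earlier results of these data known. Named are the 6 members with the largest called change in each direction whose groups do not overlap, members with a known role in testis or in a complex, members of related pairs, and those whose symbol stands on several genes. Of partners, the 3 with the largest called change in each direction and those of described members are named. Median-of-ratios, Sertoli-centred (10 genes tested) and TPM scaling, a pseudocount of 0.1, no filter, a minimum of 5 FPKM, no trend, voom on recovered fragments and leaving out each animal were alternatives. The sum of the genes of a symbol and median-of-ratios scaling of related pairs were added after seeing the data. No genome was used, and sequences and positions were not analysed here. Values of some partner genes are not reported here.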

Additional observations from a re-analysis of the deposited data

How the results depend on the processing

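Scaling between libraries moved the results most. With median-of-ratios scaling the deubiquitinases called higher went from 25 to 13, the partner genes from 22 higher and 9 lower to 13 and 16, and the median log2 fold change of the deubiquitinases from 0.34 to -0.26. With Sertoli-centred scaling 0 deubiquitinases and 0 partners were called higher and 58 and 55 lower, and the median was -1.96. The difference in summed FPKM kept its direction (-624, against -1778 with median-of-ratios scaling and -981 in TPM). Of the named deubiquitinases, the log2 fold changes that turned negative with median-of-ratios scaling were USP12 -0.54, second OTUB1 gene -0.51, UCHL3 -0.54, first OTUD6B gene -0.4021, USP38 -0.31, USP39 -0.31, USP21 -0.29, OTUD7B -0.26, USP8 -0.27, UCHL5 -0.25, second USP8 gene -0.11, USP5 -0.23 and USP32 -0.11. Those that turned negative with Sertoli-centred scaling were USP12 -2.22, second OTUB1 gene -2.22, UCHL3 -2.21, first OTUD6B gene -2.09, USP38 -2.04, USP39 -1.9970, USP21 -1.98, OTUD7B -1.97, USP8 -1.96, UCHL5 -1.94, second USP8 gene -1.92, USP5 -1.91, USP32 -1.81, USP36 -1.68, USP4 -1.67, USP37 -1.57, second USP7 gene -1.34, USP35 -1.30, STAMBP -1.28, second OTUD6B gene -1.25, USP45 -1.14, USP14 -1.10, OTULIN -1.02, USP28 -1.01, USP33 -0.9964, JOSD1 -0.9953, BRCC3 -0.6971, USP18 -0.68, USP31 -0.62, second USP9X gene -0.47, USP46 -0.25, first USP11 gene -0.2014, first USP9X gene -0.18, TNFAIP3 -0.14, USP13 -0.1033 and USP22 -0.0021. Of the 13 tested deubiquitinases outside the naming rule 2 turned negative with median-of-ratios scaling (USP30 -0.138 and USP40 -0.1204) and 8 with Sertoli-centred scaling (those, USP47, OTUD3, USP24, USPL1, USP10 and OTUD5, from -1.85 to -0.26). With 1 animal left out USP12 ranged from -0.0265 (without Y2) to 0.1191 (without Y1). The other alternatives (pseudocount of 0.1, no filter, minimum of 5 FPKM, TPM, no trend, voom) gave 21 to 27 deubiquitinases called higher and 15 to 17 lower, and reversed none of the 62 named genes tested, of which 53 were tested at the minimum of 5 FPKM. Leaving out 1 animal at a time gave 23 to 27 higher and 13 to 16 lower, 22 to 26 and 9 to 11 for the partners, medians of 0.29 to 0.36, differences in summed FPKM of -667 to -594 and 19 pairs without overlap. Summing the genes of a symbol and median-of-ratios scaling of the pairs, alternatives added after seeing the data, also gave 19 pairs. No paired analysis was possible because the groups held different animals and the labels give no pairing between them. Depth limits the lowest genes: BRCC3 rested on 7 to 13 fragments in yak, the third ATXN3 gene on 1 or 2 in cattle-yak.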

Other observations

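Gene ontology terms that the table attaches to the members, looked through after the values were seen, differed in their calls, and 2 of the 47 with at least 4 members were picked for that difference. Of 7 tested members with the term for deubiquitination of monoubiquitinated proteins 0 were called higher and 6 lower, with a median log2 fold change of -1.19 (0 and 6 with median-of-ratios scaling, 0 and 7 with Sertoli-centred scaling). Of 8 with the term for protein stabilization 6 were called higher and 1 lower, with a median of 1.56 (4 and 1 with median-of-ratios scaling, 0 and 3 with Sertoli-centred scaling). Over all genes tested 33.4% were called higher and 20.8% lower. These counts describe terms chosen for their values, without a test.

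Members whose human counterparts are known to lie on the X chromosome (USP9X, USP11, USP27X, OTUD5, BRCC3 and OTUD6A, 8 genes of 6 symbols) were also grouped after the values were seen, and positions in the yak genome were not used. Of the 8 genes 6 were called higher and 2 lower (the second USP11 gene and OTUD6A), with a median log2 fold change of 1.93, and the same numbers were called with median-of-ratios scaling. The other 67 tested members had 19 called higher and 14 lower with a median of 0.31, and 7 higher and 19 lower with median-of-ratios scaling. With Sertoli-centred scaling 0 of the 8 were called higher and 2 lower, and 0 and 56 of the 67. Over all genes tested 33.4% were called higher and 20.8% lower, with a median of 0.51. The shares were 17.7% and 27.7% with median-of-ratios scaling, and 0.186% and 75.8% with Sertoli-centred scaling. The counts of this group, chosen for its values and with USP9X and USP11 each on several genes, were not tested.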
